A study of Mus musculus with 32 samples.

Results

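The comparison described here sets mRNA from S100a10 cells of isolated mice that received fluoxetine (Flx) and were labelled anxious against the same cells of isolated mice on vehicle. It rests on 8 of the 32 libraries of the series, chosen by their labels, namely the 4 translating ribosome affinity purification (TRAP) libraries labelled Sh + Flx anxious and the 4 labelled Sh. All mice, controls included, carried the transgene Tg(S100a10-EGFP/Rpl10a)ES691Htz, which puts an EGFP-tagged ribosomal protein L10a under the regulatory elements of S100a10, so that ribosome-bound mRNA of the tagged cells can be purified with antibodies to EGFP. The mice were adult males, and both groups were single-housed (Sh) from weaning for at least 7 weeks before treatment began. The Sh + Flx anxious mice drank 0.167 g/L fluoxetine for 21 days per the labels, and were set apart from the other treated mice (Sh + Flx) by their behavior in an open field; Sh mice received vehicle and are labelled normal in behavior. Each library was made from the pooled cortices of 3 mice, hippocampi and striata removed, and whole-cortex RNA of pools of 3 mice was sequenced as input under the same replicate numbers. The methods call the 4 libraries of a group biological replicates, and the p-values measure the spread between them.

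S100a10 encodes p11, a small adaptor protein of the annexin A2 complex that helps to bring serotonin receptors to the cell surface, and in cortex it marks projection neurons of layer 5a that reach the striatum. Fluoxetine blocks the serotonin transporter and so raises serotonin outside the cell, and its antidepressant action develops over weeks. TRAP reads the mRNA on ribosomes of every cell that carries the tag, and S100a10 is also expressed outside neurons, for instance in cells of the meninges and vessels. In such bulk purifications, fewer cells of a type and less RNA per cell cannot be told apart.

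Sh TRAP 2 and 3 stood apart from the other libraries. Each result is therefore given against all 4 Sh libraries and against Sh 1 and 4 alone. Libraries of other groups also followed a split of replicates 1 and 4 against 2 and 3, described at the end. The comparison against Sh 1 and 4 sets anxious libraries of both sides against Sh libraries of 1 side. It is thus not balanced for this split. S100a10, whose regulatory elements drive the tag (chr3:93555117-93564645, GRCm38), reached 64.9, 73.5, 73.7 and 72.4 TMM-scaled CPM (counts relative to library size) in Sh + Flx anxious TRAP 1 to 4 and 57.4, 20.6, 13 and 62.7 CPM in Sh TRAP 1 to 4. Sh 2 and 3 were thus the low libraries, while Sh 1 and 4 lay just under the anxious range. Its log2 fold change was 0.88 ± 0.34 (SE; adjusted p = 0.0972) against all Sh and 0.24 ± 0.16 (SE; adjusted p = 0.424) against Sh 1 and 4, so that it passed the threshold in neither. Malat1, a long noncoding RNA that is retained in the nucleus, stood at 4873, 3125, 3181 and 5602 CPM in the anxious libraries and at 6121, 25725, 47466 and 6273 CPM in Sh TRAP 1 to 4. Reads outside annotated genes made up 50.3% and 58.6% of Sh TRAP 2 and 3, and 25.2% to 39.8% of the other TRAP libraries of the series. Sh TRAP 1 and 4 were unusually alike (mean chi-square per gene 2.17, where other pairs within a TRAP group gave 15.1 to 407, except Gh TRAP 2 and 3 at 1.13, which were summed), and they also shared RNA of the pituitary, described further on. They were kept apart here, so that all p-values against Sh 1 and 4 given below count them as 2 samples. If they are 1 pool of mice, this comparison rests on 1 control sample. Its p-values then do not measure the spread between Sh pools. Counts in genes ran from 11739667 to 32956050 in Sh TRAP and from 23571977 to 62317055 in Sh + Flx anxious TRAP.

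Against all 4 Sh libraries, 728 of 16754 genes (4.35%) rose and 1029 (6.14%) fell in Sh + Flx anxious TRAP, at an adjusted p under 0.05 by edgeR's quasi-likelihood test with Benjamini-Hochberg adjustment. Against Sh 1 and 4 alone, 448 of 16998 genes (2.64%) rose and 322 (1.89%) fell. These comparisons share their anxious libraries and Sh 1 and 4. The same direction was called in both for 269 genes that rose (1.61% of the 16699 tested in both) and 157 that fell (0.94%), which is 24.2% of the calls against all Sh and 55.3% of those against Sh 1 and 4. Of the genes that rose against all Sh, 37.0% were also called against Sh 1 and 4, and of those that fell, 15.3% were. The number of calls turned on single libraries, from 611 without anxious 2 to 2703 without Sh 4 against all Sh, and 18 without Sh 1 or 21 without Sh 4 against Sh 1 and 4. Fitted on the 8 libraries of these groups alone, 75 genes were called against all Sh. With Sh 1 and 4 summed and counted as 1 sample, 6 genes rose and 13 fell. Those that rose were Cstb, Stra6, S100a6, Nptx2, Tnnt2 and Efhd2, and among those that fell were Omd, Thbs1, Ryr1, Ptprz1, Meg3 and the growth hormone and prolactin genes.

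All 4 anxious libraries lay above all 4 Sh libraries for 1571 of the 16754 genes (9.38%) and below them for 1450 (8.65%). The 12 higher and 12 lower genes described first are those called in both comparisons, without overlap between the libraries, that had the smallest p-values. Being chosen in this way, they are described here, and their changes are not independent evidence of a difference. Where a pair of bare values follows a gene in parentheses, these are its log2 fold changes against all Sh and against Sh 1 and 4, in that order. Counts called within a gene list stand beside the shares over all genes. These were 4.35% higher and 6.14% lower against all Sh, 2.64% and 1.89% against Sh 1 and 4, and 3.98% and 2.87% in input. The list counts were not tested against these shares.

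**Figure D1:**
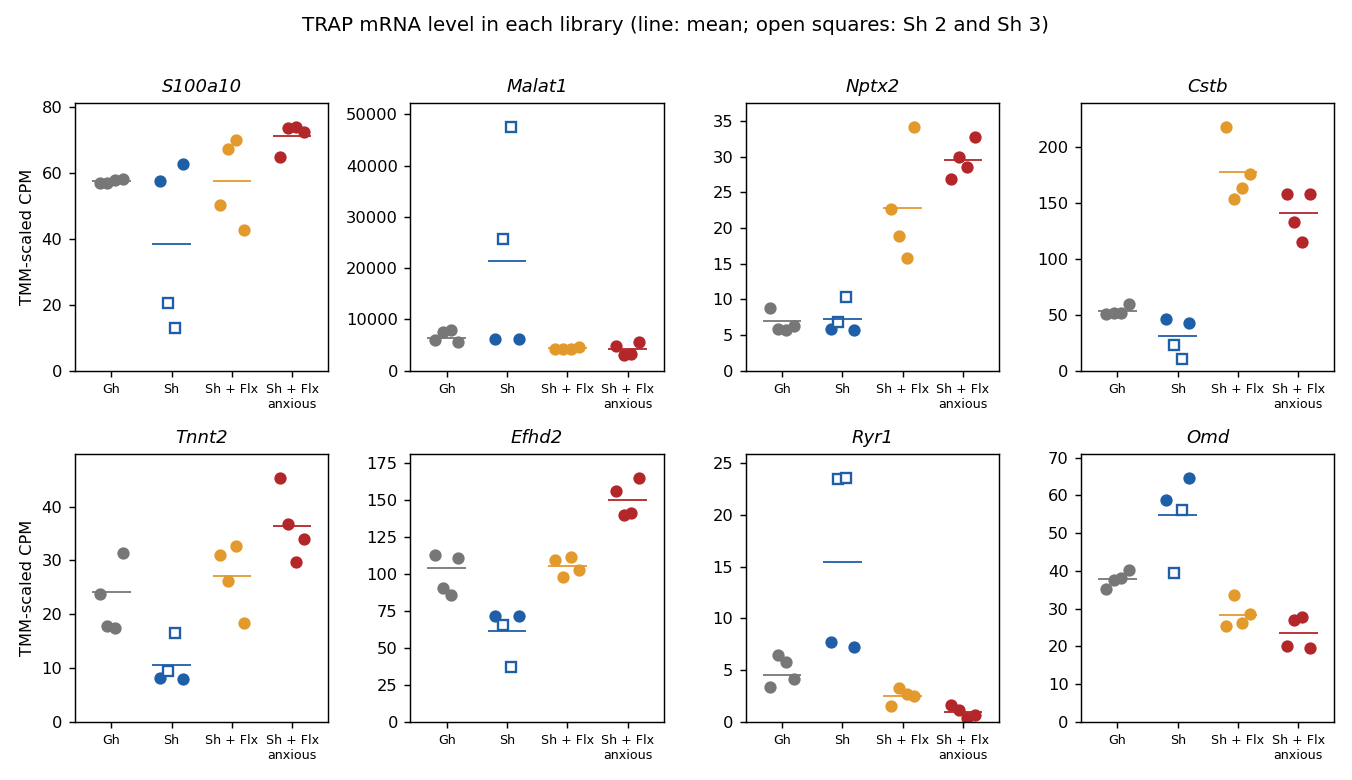
TMM-scaled CPM (vertical axes) of 8 genes in each TRAP library of 4 groups, from left to right Gh, Sh, Sh + Flx and those labelled anxious, with 1 point per library, a line at the group mean and open squares for Sh 2 and 3. S100a10 is lowest and Malat1 highest in Sh 2 and 3, while Nptx2, Cstb, Tnnt2 and Efhd2 are higher, and Ryr1 and Omd lower, in the 4 anxious libraries than in every Sh library.

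Nptx2 (chr5:144545887-144557478), a secreted neuronal pentraxin that gathers AMPA receptors at excitatory synapses and is induced by activity, had the smallest p-value among the genes that rose against all Sh. Its level was 26.8, 29.9, 28.5 and 32.7 CPM in anxious TRAP 1 to 4 and 5.85, 6.82, 10.4 and 5.75 CPM in Sh TRAP 1 to 4. The lowest anxious library thus lay well above the highest Sh library, Sh 3. The log2 fold change was 2.03 ± 0.25 (SE; adjusted p = 0.00167) against all Sh and 2.34 ± 0.28 (SE; adjusted p = 1.64e-04) against Sh 1 and 4. Whole-cortex input gave 1.82 ± 0.14 (SE; adjusted p = 5.53e-10), with 36.8, 37.6, 36.5 and 39.8 CPM in the anxious and 9.6, 9.38, 11.4 and 12.6 CPM in the Sh input libraries.

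Nptx2 belonged to a list of 20 activity-regulated secreted and synaptic proteins, of which 19 were tested. Of these, 8 rose and 1 fell against all Sh, with a median log2 fold change of 0.62, where the median of all genes was -0.01. Against Sh 1 and 4, 6 rose and none fell by edgeR (median 0.61; all genes 0.01), and all 6 had also risen against all Sh. In input, 10 rose and none fell (median 0.40; all genes -0.00114). Bdnf, the neurotrophin that supports synapses and dendrites, stood at 23.2, 22.2, 25 and 25.5 CPM in the anxious libraries against 8.79, 13.7, 13.2 and 9.94 CPM in Sh. No library of either group reached into the range of the other. Its log2 fold change was 1.08 ± 0.21 (SE; adjusted p = 0.00798) and 1.35 ± 0.24 (SE; adjusted p = 0.00402) against Sh 1 and 4, and 0.78 ± 0.1 (SE; adjusted p = 5.89e-06) in input.

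Inhba, which encodes a subunit of activin, was measured at 43.2, 35.7, 36.2 and 41 CPM in the anxious and 24.7, 17.5, 22.5 and 25.5 CPM in the Sh libraries, again with no overlap. It rose in TRAP (0.79 against all Sh, 0.63 against Sh 1 and 4) and in input (1.29). Nrn1, a membrane-anchored protein that promotes neurite growth, was at 228, 168, 156 and 227 CPM in the anxious and 116, 113, 89.4 and 123 CPM in the Sh libraries, with log2 fold changes of 0.82 and 0.7. Rgs2, which shortens Gq signals, and Nptx1, a pentraxin related to Nptx2, completed the 6, at 0.88 and 0.67 against Sh 1 and 4. Penk (enkephalin precursor) and Sst (somatostatin) rose against all Sh alone, at 0.93 and 0.73. Pcsk1, a protease that cleaves prohormones, fell there (-1.08 ± 0.26 SE, adjusted p = 0.0176) and was at -0.57 ± 0.25 (SE; adjusted p = 0.188) against Sh 1 and 4. Vgf and Ptgs2 passed in input alone, with 0.42 and 0.99, and had TRAP log2 fold changes of 0.78 and 0.86 that missed the threshold.

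**Figure D2:**
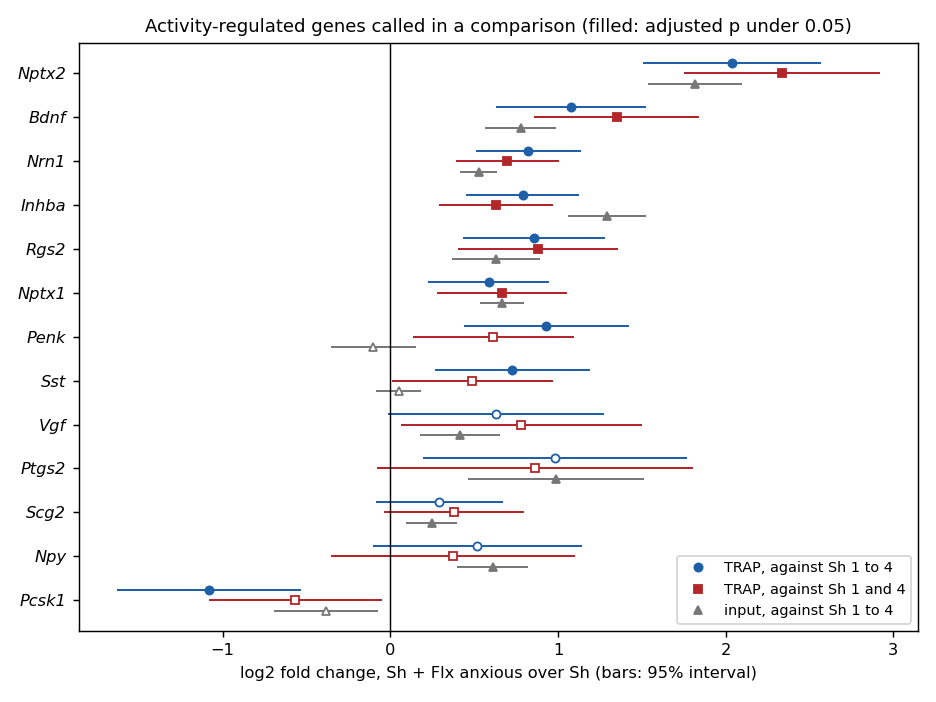
Log2 fold changes with 95% intervals (horizontal axis) of the activity-regulated genes that passed the test in at least 1 of 3 comparisons, for TRAP against all Sh, TRAP against Sh 1 and 4, and input; filled symbols passed at an adjusted p under 0.05. Nptx2, Bdnf, Nrn1, Inhba, Rgs2 and Nptx1 are filled in all 3, whereas Pcsk1 lies to the left of 0.

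The immediate early transcription factors, which activity switches on within minutes, were not called in TRAP. None of 19 tested passed by edgeR against all Sh (median 0.26) or against Sh 1 and 4 (median 0.41). In input, 2 rose (Jun and Ier5) and 5 fell (median -0.18). Fos stood at 32.8, 3.46, 2.25 and 32.4 CPM in anxious TRAP 1 to 4 and 2.85, 13.2, 13.6 and 2.64 CPM in Sh TRAP, and Arc at 50.7, 21.1, 24.4 and 48.9 and 21.2, 108, 78.3 and 19.1 CPM. Fos was high in anxious 1 and 4 and low in anxious 2 and 3, and the reverse held among the Sh libraries, so that the groups overlapped for both genes. Nr4a1, an orphan nuclear receptor of this class, had a log2 fold change of 0.89 ± 0.59 (SE; adjusted p = 0.408) in TRAP against Sh 1 and 4 and fell by edgeR in input (-0.93), as did Nr4a3 (-0.98) and Egr1 (-0.61). The MAP kinase phosphatases had 0 of 12 genes called in TRAP in either comparison.

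Cstb (chr10:78425670-78427622), which encodes cystatin B, an inhibitor of lysosomal cathepsins, was 158, 133, 115 and 159 CPM in anxious TRAP 1 to 4 and 46.5, 23.2, 10.7 and 43.1 CPM in Sh TRAP 1 to 4. The groups were far apart, with Sh 2 and 3 lowest. Its log2 fold change was 2.19 ± 0.31 (SE; adjusted p = 0.00217) against all Sh and 1.65 ± 0.16 (SE; adjusted p = 2.0e-05) against Sh 1 and 4, while input gave 0.35 ± 0.18 (SE; adjusted p = 0.324), and the TRAP change differed from the input change (difference 1.82 ± 0.38 SE, adjusted p = 0.00728). None of the other 24 tested cystatins and cathepsins was called higher by edgeR in either TRAP comparison (median of all 25 tested 0.33 against all Sh and -0.07 against Sh 1 and 4), and Ctss (cathepsin S, a microglial protease) fell against Sh 1 and 4 alone (-0.85).

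Efhd2, an EF-hand protein of the actin cytoskeleton, was 156, 139.7, 141 and 165 CPM in the anxious and 71.4, 65.7, 37.2 and 71.3 CPM in the Sh libraries, with Sh 3 the lowest. Its log2 fold change was 1.29 ± 0.17 (SE; adjusted p = 0.00202) against all Sh, 1.07 ± 0.13 (SE; adjusted p = 1.57e-04) against Sh 1 and 4 and 0.64 ± 0.09 (SE; adjusted p = 1.03e-05) in input. Hpcal4, a neuronal calcium sensor of the hippocalcin family, was 1352, 1639, 1720 and 1315 CPM in the anxious and 719, 701, 534 and 674 CPM in the Sh libraries. The groups did not overlap (1.2 and 1.1). Kcnip3, a calcium-dependent repressor that also binds A-type potassium channels, reached 279, 247, 262 and 312 CPM in the anxious and 155, 129.9, 158 and 152 CPM in the Sh libraries, with log2 fold changes of 0.89, 0.84 and, in input, 0.8.

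The calcium signaling list held 41 genes and moved in both directions. Against all Sh, 7 rose and 8 fell (median -0.22), and against Sh 1 and 4, 5 rose and 3 fell (median 0.18). Among those that rose in both were Vsnl1 and Hpca, neuronal calcium sensors like Hpcal4. Vsnl1 was 5034, 5158, 5619 and 6993 CPM in the anxious and 3087, 2168, 3452 and 3029 CPM in the Sh libraries, without overlap (0.96 and 0.89). In input, Vsnl1 was at -0.07 ± 0.06 (SE; adjusted p = 0.654). The genes that fell in both were Ryr1 and Itpr2, which are calcium release channels of the endoplasmic reticulum, while Ryr2, Ryr3, Itpr1, Camk2a, Atp2b1 and Atp2b2 fell against all Sh alone.

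Synaptic vesicle and SNARE genes, which carry out transmitter release, were mostly called higher where they were called. Of 31 tested, 10 rose and none fell by edgeR against Sh 1 and 4 (median 0.34), and 6 rose and 1 fell against all Sh (median 0.17). All 6 were among the 10. Snap25, a t-SNARE of the plasma membrane, was 22601, 20092, 21080 and 28609 CPM in the anxious and 13713, 11348, 14742 and 13885 CPM in the Sh libraries. Every anxious library exceeded every Sh library, with log2 fold changes of 0.78 and 0.73 and of 0.07 ± 0.06 (SE; adjusted p = 0.67) in input. The others called in both were Syn2 (a synapsin, 0.84 against Sh 1 and 4), Napb (the SNAP cofactor of SNARE disassembly, 0.77), Slc17a7 (the vesicular glutamate transporter VGLUT1, 0.65), Cplx1 (complexin, 0.58) and Vamp2 (the vesicle SNARE, 0.47). Snap91, Sv2b, Stx1a and Nsf passed against Sh 1 and 4 alone. Syt7, a calcium sensor of release, fell against all Sh (-0.74) and was at -0.19 ± 0.18 (SE; adjusted p = 0.568) against Sh 1 and 4. Syn2 had among the smallest p-values in input, where it was at 0.76 ± 0.05 (SE; adjusted p = 7.04e-11).

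Many genes of the respiratory chain rose against all Sh, and fewer against Sh 1 and 4. For complex I, which oxidizes NADH, 11 of 37 rose (median 0.61) and 3 of 37 did against Sh 1 and 4 (median 0.26), with none falling by edgeR. For complexes II to V and cytochrome c, the figures were 16 of 39 (median 0.67) and 6 of 39 (median 0.25). In input, 0 of 36 and 1 of 39 rose, with medians of 0.04 and 0.03. Cycs, the electron carrier cytochrome c, was 374, 396, 362 and 459 CPM in anxious TRAP 1 to 4 and 216, 132, 129 and 221 CPM in Sh TRAP 1 to 4. The anxious libraries were all higher, and Sh 2 and 3 were the lowest. Its log2 fold change was 1.19 ± 0.17 (SE; adjusted p = 0.0022), 0.86 ± 0.12 (SE; adjusted p = 0.00132) against Sh 1 and 4, and 0.11 ± 0.07 (SE; adjusted p = 0.471) in input. Atp5g1, a subunit of the proton channel of ATP synthase, was 56, 49.7, 57 and 55.3 CPM in the anxious and 32.3, 21.6, 11.6 and 31.8 CPM in the Sh libraries (1.16 and 0.76). Ndufa8, Ndufab1 and Ndufs4 of complex I, Sdhb, Uqcrfs1, Cox5a and Cox5b also rose in both comparisons.

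The mitochondrial ribosome and the proteasome gave a like contrast between the control sets. Of 59 mitochondrial ribosomal proteins, 8 rose against all Sh (median 0.46) and 2, Mrps36 and Mrps33, against Sh 1 and 4 (median 0.18). Of 31 proteasome subunits, 8 rose against all Sh (median 0.44) and 1, Psmd12, against Sh 1 and 4 (median 0.25). Over all genes tested, the share that rose was also smaller against Sh 1 and 4 (2.64%) than against all Sh (4.35%). The 79 cytosolic ribosomal proteins had 0 called against all Sh (median 0.30) and 1 that fell, Rps14, against Sh 1 and 4 (median -0.16), so that the sign of their median depended on the Sh libraries used. The counts against Sh 1 and 4 were obtained without Sh 2 and 3, the libraries with little S100a10 and much Malat1.

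Cycs and Zwint were the 2 of the 12 named higher genes whose promoter held the cAMP response element, TGACGTCA, the site that CREB binds. Promoters of 10 of the 12 were in the RefSeq table of 32851 windows (GRCm38.p6, 250 bases before to 50 after each start), searched on both strands; the element reads the same on both, and 1.79% of all windows hold it. Its first 5 letters, TGACG, which the full element contains, were found on either strand in 3 of the 10 (Efhd2 as well) and in 20.8% of all windows. These counts are of genes and the shares of windows. Tnnt2 and Cdkn1a had 2 windows each and Kcnip3 had 3, none with a match, so that counts and shares are not like for like. Nptx2 and Cstb were not in the table. The stretch around each match is shown because these genes moved together in TRAP mRNA, with the element in capitals; a match is a description of the letters and not of binding. The Cycs window is chr6:50566691-50566778 on the minus strand and the Zwint window chr10:72654783-72654845 on the plus strand.
Cycs: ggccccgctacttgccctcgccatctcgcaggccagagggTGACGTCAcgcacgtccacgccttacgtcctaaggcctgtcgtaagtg
Zwint: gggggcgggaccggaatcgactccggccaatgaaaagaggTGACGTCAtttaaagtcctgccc

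Zwint, whose product binds ZW10 at the kinetochore and is abundant in neurons, was 151, 158, 160.2 and 163 CPM in the anxious and 98, 97.8, 77.1 and 95.2 CPM in the Sh libraries (0.78 and 0.7). The 4 anxious values lay close together and above every Sh value, the lowest of which was Sh 3. Tnnt2, the cardiac form of troponin T, was 45.2, 36.7, 29.7 and 33.9 CPM in the anxious and 8.08, 9.4, 16.6 and 7.98 CPM in the Sh libraries. Here Sh 3 was the highest of the Sh libraries, and the log2 fold change was 1.79 ± 0.26 (SE; adjusted p = 0.0022) against all Sh, 2.17 ± 0.27 (SE; adjusted p = 1.97e-04) against Sh 1 and 4 and 0.53 ± 0.13 (SE; adjusted p = 0.00775) in input. Cdkn1a, the cyclin-dependent kinase inhibitor p21 and a target of glucocorticoids and p53, stood at 58.3, 53.6, 56.5 and 59.3 CPM in the anxious and 28.1, 12.2, 18.2 and 27.1 CPM in the Sh libraries. It rose in TRAP (1.4 and 1.03) and in input (0.83), and was the one member of 16 glucocorticoid-induced genes that rose in either TRAP comparison, while Per1 fell against all Sh (-0.66).

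Ecm1, a secreted protein of the extracellular matrix, was 21.5, 25.3, 34.1 and 19.2 CPM in the anxious and 8.84, 4.31, 4.15 and 8.34 CPM in the Sh libraries (1.95 and 1.53). Arl15, a small GTPase, was 91.5, 95.7, 90.4 and 104 CPM in the anxious and 53.3, 36.7, 45 and 53.9 CPM in the Sh libraries (1.01 and 0.82), again without overlap. Rgs13, a GTPase-activating protein for Gi and Gq, was nearly absent from Sh TRAP. Its counts were 116, 95, 67 and 126 in anxious TRAP 1 to 4 and 1, 0, 1 and 0 in Sh TRAP 1 to 4. Relative to library size this is a ratio of 103.9, with an exact 95% interval from 28.59 to 861.1 that covers counting error only. Input held 19, 37, 11 and 12 counts in the Sh libraries, and the log2 fold change there was 2.72 ± 0.3 (SE; adjusted p = 3.9e-07).

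**Figure D3:**
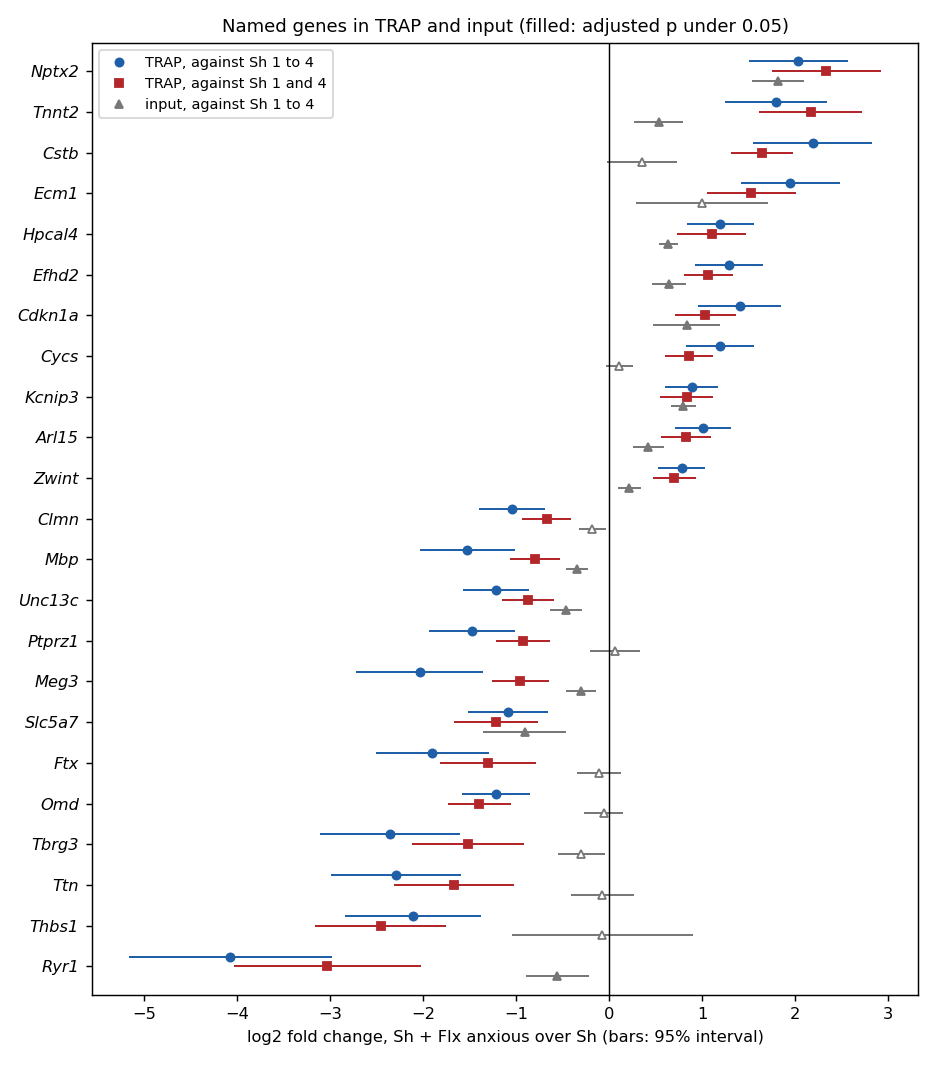
Log2 fold changes with 95% intervals (horizontal axis) of the named genes other than Rgs13, for TRAP against all Sh, TRAP against Sh 1 and 4, and input; filled symbols passed at an adjusted p under 0.05. Ryr1 lies farthest to the left in both TRAP comparisons, whereas the input values of Cstb, Cycs, Omd, Ptprz1 and Thbs1 are open and lie near 0 or well inside their TRAP values.

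Among the genes that fell, Ryr1 (chr7:29003340-29125179), a calcium release channel best known from skeletal muscle, had the largest fall of the 12 named. It stood at 1.64, 1.11, 0.324 and 0.682 CPM in anxious TRAP 1 to 4 and 7.7, 23.5, 23.5 and 7.25 CPM in Sh TRAP 1 to 4. Sh 2 and 3 were about 3-fold above Sh 1 and 4, and these in turn were well above every anxious library. The log2 fold change was -4.07 ± 0.52 (SE; adjusted p = 0.00167) against all Sh and -3.03 ± 0.48 (SE; adjusted p = 0.00208) against Sh 1 and 4. In input it was -0.56 ± 0.17 (SE; adjusted p = 0.0386), and the TRAP change was the larger (difference -3.53 ± 0.51 SE, adjusted p = 8.29e-04). Titin (Ttn), the giant protein of the muscle sarcomere, was 8.2, 4.44, 2.56 and 4.74 CPM in the anxious and 16.4, 29.7, 36.3 and 14.9 CPM in the Sh libraries (-2.29 and -1.67).

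Meg3, a noncoding RNA of the imprinted Dlk1 locus, was 1161, 794, 839 and 1132 CPM in the anxious and 1893, 5619, 6732 and 1887 CPM in the Sh libraries. Sh 2 and 3 were highest, and Sh 1 and 4 still exceeded every anxious library (-2.04 ± 0.33 SE, adjusted p = 0.00336 and -0.95 ± 0.15 SE, adjusted p = 0.00193). Of 12 nuclear-retained noncoding RNAs tested, 8 fell against all Sh (median -1.64) and 4 against Sh 1 and 4 (median -0.57), and 3 fell in input (median -0.14). Neat1, the scaffold of paraspeckles, Miat and Meg3 fell in both TRAP comparisons, and Malat1 against all Sh (-2.35 ± 0.47 SE, adjusted p = 0.00808) but not against Sh 1 and 4 (-0.57 ± 0.17 SE, adjusted p = 0.0653). The summed level of the list was 4747 to 7885 CPM in the anxious libraries, 9927 to 10058 CPM in Sh 1 and 4 and 35033 to 52338 CPM in Sh 2 and 3. Summed levels, here and below, are CPM of library size without TMM scaling, unlike the values of single genes. Input libraries of both groups held 45107 to 54624 CPM. Ftx, a noncoding RNA of the X-inactivation center, was 12.5, 8.66, 6.89 and 12.7 CPM in the anxious and 25.5, 40.2, 62.2 and 24.4 CPM in the Sh libraries (-1.9 and -1.3). The part of nuclear RNA in these calls was not tested.

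Omd, the small leucine-rich proteoglycan osteomodulin, was 20.2, 26.9, 27.6 and 19.6 CPM in the anxious and 58.8, 39.5, 56.2 and 64.5 CPM in the Sh libraries. The groups did not overlap, and Sh 2 and 3 did not stand apart from Sh 1 and 4 (-1.22 ± 0.18 SE, adjusted p = 0.0022 and -1.39 ± 0.16 SE, adjusted p = 1.5e-04). In input Omd was at -0.06 ± 0.1 (SE; adjusted p = 0.847). Thbs1, the secreted protein thrombospondin 1, was 2.51, 3.5, 2.16 and 2.14 CPM in the anxious and 14.3, 5.69, 10.5 and 13.6 CPM in the Sh libraries (-2.11 and -2.46), with Sh 1 and 4 highest. Its input value was -0.07 ± 0.47 (SE; adjusted p = 0.964).

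Ptprz1, a receptor phosphatase of glia and their precursors, was 68.9, 76.1, 77.3 and 71.1 CPM in the anxious and 140.3, 221, 316 and 137 CPM in the Sh libraries (-1.47 and -0.93; input 0.07 ± 0.13 SE, adjusted p = 0.863). Mbp, the basic protein of myelin, was 71.9, 88.8, 91.2 and 83.2 CPM in the anxious and 146, 368, 307 and 143 CPM in the Sh libraries. It fell in TRAP (-1.52 and -0.8) and in input (-0.35). Unc13c, a vesicle priming factor of the Munc13 family, was 33.9, 43.5, 38.2 and 40.1 CPM in the anxious and 72.2, 101, 119.6 and 69.2 CPM in the Sh libraries, and also fell in input (-0.46). Slc5a7, the choline transporter of cholinergic neurons, was 10.6, 11.3, 10.4 and 12.1 CPM in the anxious and 24.4, 18.2, 24.6 and 26.8 CPM in the Sh libraries (-1.09 and -1.22; input -0.91). The remaining genes of this set were Clmn, which encodes the actin-binding protein calmin (-1.05 and -0.67), and Tbrg3 (-2.36 and -1.52).

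**Figure D4:**
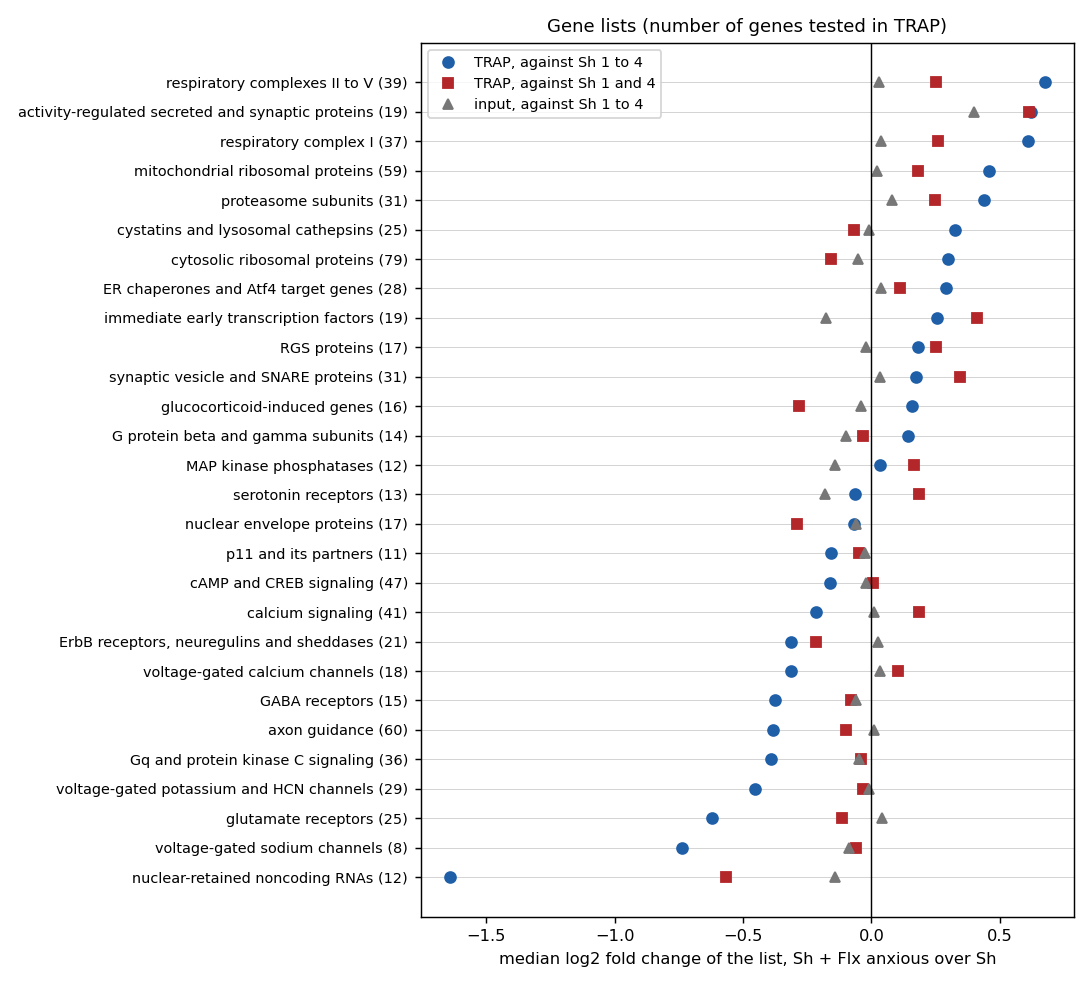
Median log2 fold change (horizontal axis) of each gene list with at least 8 genes tested in TRAP, cell type markers left out, for TRAP against all Sh, TRAP against Sh 1 and 4, and input; the number of genes tested stands in parentheses. Respiratory complexes II to V lie highest and nuclear noncoding RNAs lowest against all Sh, and the respiratory, glutamate receptor and nuclear noncoding lists lie nearer 0 against Sh 1 and 4, whereas the activity-regulated list stays at 0.61.

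Receptor and ion channel genes that were called against all Sh were all lower, and most of these calls were absent against Sh 1 and 4. Of 25 glutamate receptor genes, 8 fell against all Sh (median -0.62) and none passed by edgeR against Sh 1 and 4 (median -0.12). The counts were 2 and 0 of 15 GABA receptor genes, 3 and 0 of 18 calcium channel genes, 4 and 0 of 29 potassium and HCN channel genes, and 4 and 1 of 8 sodium channel genes. The medians of these lists against Sh 1 and 4 lay between -0.12 and 0.10. Scn1a, the sodium channel Nav1.1, was the one that fell in both, at 95, 103, 96.6 and 108 CPM in the anxious and 133, 276, 359 and 139 CPM in the Sh libraries. Sh 2 and 3 were the highest, and Sh 1 and 4 still exceeded the anxious libraries (-1.17 ± 0.24 SE, adjusted p = 0.00837 and -0.44 ± 0.11 SE, adjusted p = 0.0256; input -0.42 ± 0.06 SE, adjusted p = 1.03e-05). Grik2, a kainate receptor subunit, was 30.8, 23, 21 and 27.6 CPM in the anxious and 41.3, 73.2, 81.1 and 42.8 CPM in the Sh libraries (-1.22 ± 0.24 SE, adjusted p = 0.00837 and -0.72 ± 0.22 SE, adjusted p = 0.0615).

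Of the 1757 genes called against all Sh, 116 had a log2 fold change under 0.2 in size against Sh 1 and 4 and 5 had the opposite sign. Celsr3, an adhesion receptor of the cadherin family that guides axons, was 18.6, 13.3, 14.8 and 19.8 CPM in the anxious and 18.6, 99.8, 113 and 16.6 CPM in the Sh libraries. Sh 1 and 4 fell within the anxious range, and only Sh 2 and 3 were above it (-1.89 ± 0.46 SE, adjusted p = 0.0187 and -0.09 ± 0.24 SE, adjusted p = 0.865). Cacna1b, the N-type calcium channel, was 93.6, 83.9, 89.9 and 92.4 CPM in the anxious and 103, 237, 298 and 102 CPM in the Sh libraries, with Sh 1 and 4 just above the anxious range. Csmd1, a transmembrane regulator of complement, was 65.6, 38.2, 47.4 and 54.6 CPM in the anxious and 57.7, 160.4, 224 and 59.8 CPM in the Sh libraries. Tenm2, a teneurin of the synapse, and the noncoding D7Ertd715e had log2 fold changes of -1.1 and -2.04 against all Sh and of -0.16 and -0.17 against Sh 1 and 4.

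**Figure D5:**
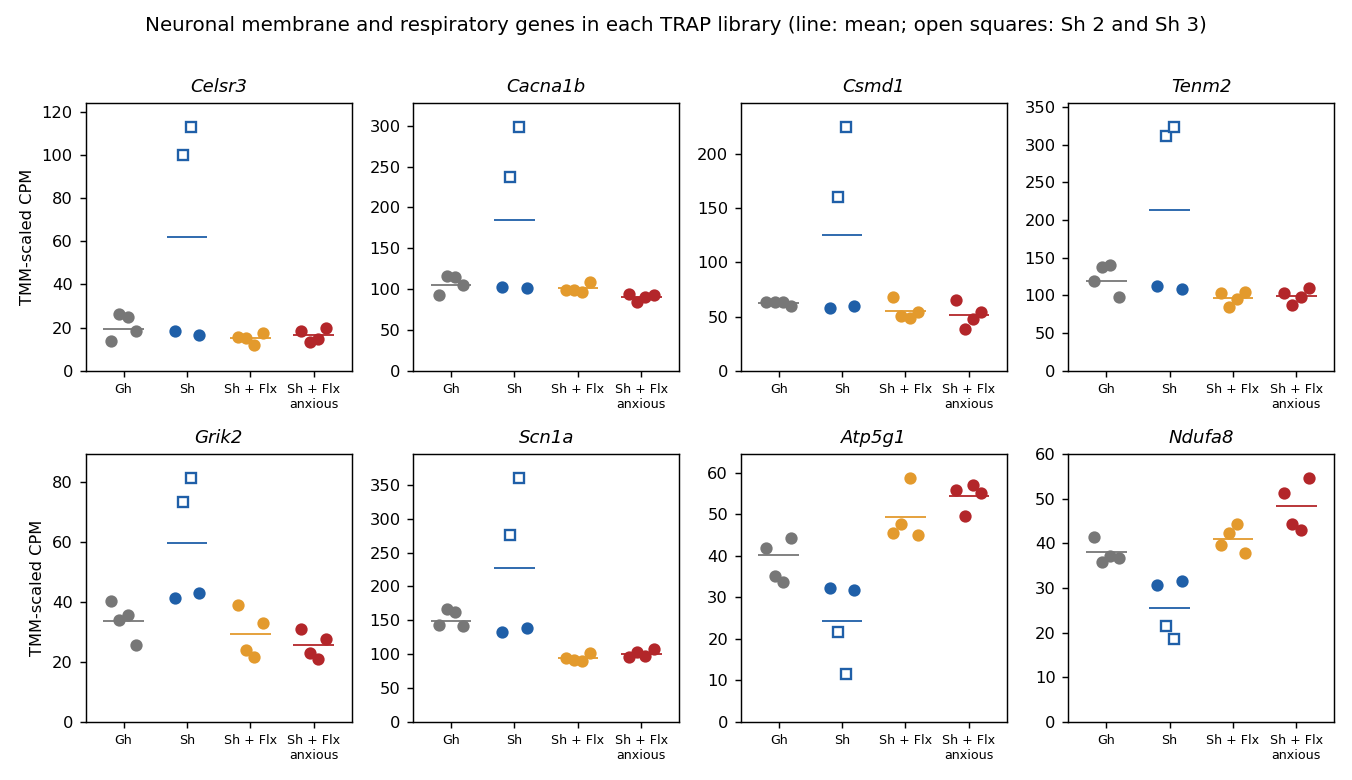
TMM-scaled CPM (vertical axes) in each TRAP library of 4 groups, from left to right Gh, Sh, Sh + Flx and those labelled anxious, with 1 point per library, a line at the group mean and open squares for Sh 2 and 3. Celsr3, Cacna1b, Csmd1 and Tenm2 are high in Sh 2 and 3 while Sh 1 and 4 lie near the anxious libraries, whereas Atp5g1 and Ndufa8 in Sh 1 and 4 lie below the anxious libraries and above Sh 2 and 3.

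The genomic span of the called genes is given as a description, with no test. The median gene tested against all Sh spanned 22.8 kb in RefSeq, and 14.0% spanned more than 100 kb. Genes that fell against all Sh had a median span of 53.0 kb, with 32.0% above 100 kb, and genes that rose had a median of 16.3 kb, with 8.16%. Against Sh 1 and 4, the genes that fell had a median of 30.3 kb (20.2%) and those that rose 24.6 kb (13.0%). The part of gene length in these calls was not tested.

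Serotonin receptor genes showed no call in TRAP. None of 13 tested passed by edgeR against all Sh (median -0.06) or against Sh 1 and 4 (median 0.18). Htr2a, the excitatory 5-HT2A receptor, was 33.8, 21, 20.6 and 28.9 CPM in the anxious and 15.6, 23.7, 25.6 and 13.9 CPM in the Sh libraries, so that Sh 2 and 3 lay within the anxious range and Sh 1 and 4 below it. Its log2 fold change was 0.41 ± 0.24 (SE; adjusted p = 0.265) against all Sh and 0.81 ± 0.24 (SE; adjusted p = 0.0578) against Sh 1 and 4, with a 95% interval of 0.31 to 1.32 for the latter. Htr1a, the inhibitory 5-HT1A receptor, was 14.1, 13.3, 10.5 and 8.69 CPM in the anxious and 13.4, 10.4, 12.5 and 14 CPM in the Sh libraries, overlapping widely (-0.12 ± 0.22 SE, adjusted p = 0.758 and -0.24 ± 0.25 SE, adjusted p = 0.602). In input, Htr5a rose (0.3 ± 0.08 SE, adjusted p = 0.0232). Among 11 genes of p11 and its partners, Grm5, the metabotropic glutamate receptor 5, fell against all Sh (-0.81 ± 0.21 SE, adjusted p = 0.0219) and none passed by edgeR against Sh 1 and 4 (Grm5 -0.29 ± 0.13 SE, adjusted p = 0.192).

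Of 47 cAMP and CREB signaling genes, 5 rose and 8 fell against all Sh (median -0.16), and 3 rose and 1 fell against Sh 1 and 4 (median 0.01). The shares over all genes were 4.35% and 6.14% against all Sh, and 2.64% and 1.89% against Sh 1 and 4. Prkar1b, a regulatory subunit of protein kinase A, and Pde1a, a calcium-dependent phosphodiesterase, rose in both, at 0.64 and 0.32 against Sh 1 and 4. Of 36 genes of Gq and protein kinase C signaling, 6 fell against all Sh and 2 against Sh 1 and 4, Plcg1 (-0.7), which encodes phospholipase C gamma 1, and Dgkz (-0.53), a diacylglycerol kinase. Of the G protein beta and gamma subunits, Gng3 rose in both (1.04 and 0.83) and Gnb4 fell in both (-0.7 and -0.72). Among 17 RGS proteins, 2 rose and 2 fell against all Sh and 3 rose and 1 fell against Sh 1 and 4. Rgs9, the RGS protein of striatal neurons, was 22.3, 19.8, 19.6 and 19.2 CPM in the anxious and 38, 86.3, 113 and 37 CPM in the Sh libraries (-1.76 and -0.9).

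Of 60 axon guidance genes, 1 rose and 7 fell against all Sh (median -0.38), and 2 rose and 3 fell against Sh 1 and 4 (median -0.10). Over all genes, 4.35% rose and 6.14% fell against all Sh, and 2.64% and 1.89% against Sh 1 and 4. The counts in this paragraph were not tested against those shares. The 3 were Plxnd1, a semaphorin receptor (-1.01 and -0.96), Dcc, the netrin receptor (-1.02 and -0.92), and Ephb1, an ephrin receptor (-1.07 and -0.92), all of which had also fallen against all Sh. In the list of ErbB receptors, neuregulins and sheddases, 2 of 21 rose and 3 fell against all Sh and 1 fell against Sh 1 and 4, the sheddase Adam10 (-0.59 and -0.67). Erbb4, a neuregulin receptor, fell against all Sh (-1.17 ± 0.24 SE, adjusted p = 0.00937) and was at -0.62 ± 0.2 (SE; adjusted p = 0.0839) against Sh 1 and 4. Of 28 ER chaperones and Atf4 target genes, 3 rose against all Sh (Hspa5, Pdia3 and Sdf2l1) and 1, Creld2, fell against Sh 1 and 4. Among 17 nuclear envelope genes, 2 rose and 4 fell against all Sh, and Emd, which encodes emerin, rose in both (1.07 and 0.79).

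Markers of other cells moved with the groups as well, and the counts called among them stand beside the same shares over all genes. The 16 meningeal fibroblast markers summed to 6188 to 10563 CPM in anxious TRAP, 13569 to 13758 CPM in Sh 1 and 4 and 2793 to 3908 CPM in Sh 2 and 3. The anxious libraries thus lay between the Sh pairs. In input these markers summed to 191 to 261 CPM in the anxious and 286 to 317 CPM in the Sh libraries, far below TRAP. Against all Sh, 3 of the 16 rose (Col1a1, Col3a1 and Aldh1a2) and none fell by edgeR, and against Sh 1 and 4, 2 rose (the collagens Col1a1, 0.7, and Col3a1, 0.77) and 5 fell, Igf2, Slc6a13, Ptgds, Ogn and Slc22a6. The 14 oligodendrocyte markers summed to 673 to 1086 CPM in anxious TRAP, 1241 to 1284 CPM in Sh 1 and 4 and 1342 to 1559 CPM in Sh 2 and 3. Of these, 3 fell against all Sh (Mbp, Mobp and Ugt8a) and 2 against Sh 1 and 4 (Mbp and Cldn11), and 12 fell in input. Mural cell markers, from vessel walls, summed to 131 to 144 CPM in anxious TRAP, 224 to 229 CPM in Sh 1 and 4 and 104 to 136 CPM in Sh 2 and 3. No marker of these 3 lists was at 0 in any of the 8 libraries, and their part in the changes given above was not tested.

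Astrocyte markers summed to 2876 to 4370 CPM in anxious TRAP and 3853 to 4384 CPM in Sh TRAP. Gfap, the filament protein of reactive astrocytes, rose in TRAP (1.06 ± 0.23 SE, adjusted p = 0.0109 and 1.09 ± 0.26 SE, adjusted p = 0.0231) and in input (1.06 ± 0.1 SE, adjusted p = 4.28e-08), and no other of the 13 markers was called in TRAP. The 16 interneuron markers summed to 1233 to 1340 CPM in anxious TRAP, 1007 to 1022 CPM in Sh 1 and 4 and 1526 to 1551 CPM in Sh 2 and 3. Against all Sh, 2 of them rose (Cck and Sst) and 2 fell (Dlx6os1 and Erbb4), and against Sh 1 and 4, 1 rose and none fell by edgeR. Cck, the peptide cholecystokinin that pyramidal cells also make, rose in both (1.0 and 0.87). Of 13 markers of striatal spiny neurons, 2 rose and 4 fell against all Sh and 1 fell against Sh 1 and 4. In input, 1 of the 13 rose and 6 fell (median -0.38). The 11 markers of layer 5 intratelencephalic neurons, S100a10 among them, summed to 917 to 1214 CPM in anxious TRAP and 812 to 1020 CPM in Sh TRAP. In input they summed to 1085 to 1107 CPM in the anxious and 1151 to 1252 CPM in the Sh libraries. The summed list thus lay below input in Sh TRAP and overlapped it in anxious TRAP. S100a10 itself averaged 71.1 CPM in anxious TRAP and 7.44 CPM in anxious input. Rbp4 was called higher in both comparisons (1.34 and 0.89), and Tcerg1l lower against all Sh alone (-0.99 and -0.73).

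Hormone genes of the anterior pituitary, a gland at the base of the brain, were found in Sh TRAP 1 and 4 and in the input libraries of the same numbers. The growth hormone gene had 2111 and 1284 counts in Sh TRAP 1 and 4, 0 and 1 in Sh TRAP 2 and 3, and 0, 0, 10 and 0 in anxious TRAP 1 to 4. Sh input 1 and 4 had 2378 and 1708 counts, and Sh input 2 and 3 had 0. Prl, which encodes prolactin, had 645 and 350 counts in Sh TRAP 1 and 4, 0 in Sh TRAP 2 and 3, and 0, 3, 0 and 18 in anxious TRAP 1 to 4. The 8 pituitary markers summed to 94.8 to 98.9 CPM in Sh 1 and 4, 1.53 to 1.54 CPM in Sh 2 and 3 and 0.764 to 1.48 CPM in the anxious libraries, in which 4 to 6 of the 8 were at 0. Against Sh 1 and 4, 5 of 6 tested pituitary markers fell, and the part of pituitary RNA in other calls against Sh 1 and 4 was not tested.

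Compared with the Sh + Flx mice, the anxious mice showed no called gene, in a contrast that leaves the Sh levels aside, although the Sh libraries entered the shared scaling and estimate of spread. Of 16754 genes, 0 rose (0.0%) and 0 fell (0.0%) by edgeR's quasi-likelihood test, while 724 had an unadjusted p below 0.05 and DESeq2 made 9 calls. Fitted on the 8 libraries of the 2 Flx groups alone, edgeR also called 0 genes, with 1264 at an unadjusted p below 0.05. Other fits of these groups did call genes. There were 903 with replicates 2 and 3 alone, 14 with replicates 1 and 4 alone and 10 with the replicate numbers as a block. The absence of calls in the main fit therefore does not show that the Flx groups were alike. The levels of the genes described above are given side by side, since both groups were set against the same Sh libraries. Nptx2 was 22.8 ± 7.99 CPM in Sh + Flx (SD, n = 4), against 29.5 ± 2.49 in Sh + Flx anxious (SD, n = 4) and 6.93 ± 1.64 in group-housed vehicle mice (Gh; SD, n = 3 after 2 near-identical libraries were summed). The anxious over Sh + Flx difference was 0.37 on the log2 scale, with a 95% interval of -0.13 to 0.87. Cstb was 178 ± 28.1 CPM in Sh + Flx, 141 ± 21.1 in Sh + Flx anxious and 53.9 ± 4.78 in Gh, with an interval of -0.95 to 0.28 for the difference between the Flx groups.

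Efhd2 was 106 ± 6.25 CPM in Sh + Flx, 150.4 ± 12 in Sh + Flx anxious and 104 ± 13.6 in Gh. Its difference between the Flx groups was 0.51 (95% interval 0.15 to 0.87, unadjusted; adjusted p = 1). Ryr1 was 2.48 ± 0.762 CPM in Sh + Flx, 0.939 ± 0.567 in Sh + Flx anxious and 4.54 ± 1.42 in Gh, and its difference was -1.44 (95% interval -2.46 to -0.43, unadjusted; adjusted p = 1). S100a10 was 57.5 ± 13.2 CPM in Sh + Flx and 57.4 ± 0.485 in Gh, close to Sh 1 and 4 and to the anxious libraries (-0.4 to 1.01 for the difference between the Flx groups).

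In whole-cortex input, 625 of 15690 genes (3.98%) rose and 451 (2.87%) fell in Sh + Flx anxious against Sh. The labels do not say whether the TRAP and input libraries of 1 number came from 1 pool, but the pituitary RNA of Sh 1 and 4 was present in both fractions. Of the 710 genes that rose in TRAP against all Sh and were tested in input, 122 also rose in input (17.2%, or 19.5% of the input calls), and of the 1003 that fell, 101 fell in input (10.1%, or 22.4%). Against Sh 1 and 4, the shares were 134 of 440 (30.5%, or 21.4%) and 43 of 279 (15.4%, or 9.53%). Opposite calls numbered 7 and 8 against all Sh and 4 and 1 against Sh 1 and 4. Wfs1, the endoplasmic reticulum protein wolframin, was among the genes with the smallest p-values in input and rose in all 3 comparisons (1.01, 1.0 and 1.14). Mylk, the myosin light chain kinase, rose in input (1.17 ± 0.08 SE, adjusted p = 1.37e-10) and was at 0.22 ± 0.21 (SE; adjusted p = 0.533) and -0.19 ± 0.12 (SE; adjusted p = 0.406) in TRAP. Rimbp2, a scaffold of presynaptic calcium channels, was likewise 1.0 ± 0.07 (SE; adjusted p = 2.17e-10) in input, and was at -0.34 ± 0.27 (SE; adjusted p = 0.431) in TRAP against all Sh and 0.43 ± 0.2 (SE; adjusted p = 0.213) against Sh 1 and 4.

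The change in TRAP was higher than that in input for 364 of 17015 genes (2.14%) and lower for 879 (5.17%), by the test of the difference itself with all 4 Sh libraries in each fraction. Without Sh TRAP 2 and 3, these numbers were 368 and 147. Of the activity-regulated list, 1 gene of 19, Penk, had a TRAP change above its input change and none had one below it by edgeR, and the median difference was 0.10. For respiratory complexes II to V, 10 of 39 had a higher TRAP change and 1 a lower one (median difference 0.63). For glutamate receptors, 0 and 5 of 25 did (median difference -0.64). These list values include Sh TRAP 2 and 3. Against Sh 1 and 4 alone, the TRAP medians of these lists were 0.25 and -0.12, and their input medians were 0.03 and 0.04. Omd, Thbs1 and Ptprz1, which fell in TRAP, had differences of -1.17 ± 0.2 (SE; adjusted p = 0.00207), -2.05 ± 0.56 (SE; adjusted p = 0.0248) and -1.54 ± 0.27 (SE; adjusted p = 0.00301). Nptx2, which rose in both fractions, had one of 0.22 ± 0.28 (SE; adjusted p = 0.677), and Bdnf one of 0.3 ± 0.23 (SE; adjusted p = 0.433).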

How the data were processed

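TRAP and input RNA of the S100a10 bacTRAP mice was measured in 32 libraries, of which the 8 TRAP libraries of Sh + Flx anxious and Sh make up the comparison. For these libraries the authors used the Ovation RNA-Seq V2 kit, without strand marking, and TruSeq v2, read 75-bp paired ends on a NextSeq 500, aligned them with TopHat2 2.0.11 to mm10 with UCSC gene models, and deposited raw counts per gene. The counting program and strand option, not given in the sources used here, leave overlapping genes and near-identical copies uncertain. Further tables deposited by the authors hold the mean FPKM of each group (Cufflinks 2.2.1) with their own fold changes and p-values (edgeR 3.8.6 per the methods; the processing notes also name DESeq2), which were not used.

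In each file, 5 lines that name no gene entered neither library sizes nor tests; reads outside genes were 25.2% to 58.6% of TRAP totals. Groups came from the labels. Counts were TMM-scaled, filtered with filterByExpr and fitted with glmQLFit and glmQLFTest in edgeR 4.0.16 (limma 3.58.1, R 4.3.3) without covariates, with Benjamini-Hochberg adjustment over all genes kept and a threshold of 0.05. All TRAP groups entered 1 fit (16754 genes, 15 libraries, Gh TRAP 2 and 3 summed because they differed by less than the noise between replicates; median biological coefficient of variation 0.266), repeated without Sh TRAP 2 and 3 (16998 genes, 13 libraries, 0.202). Input (15690 genes, 16 libraries, 0.119) and both fractions (17015 genes, 31 libraries, 0.211) were fitted apart, the latter with an interaction term. CPM are TMM-scaled within the TRAP or the input fit, and counts of hormone genes and Rgs13 are raw. Standard errors and 95% intervals are not adjusted over genes. The procedure was tested on simulated data.

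The 44 gene lists, the groups compared and the naming rules were chosen with earlier results of these data known. Named were S100a10, Htr2a, Htr1a, Malat1 and Meg3, the 12 higher and 12 lower genes defined in the text, up to 5 genes called against all Sh that were near 0 or opposite against Sh 1 and 4, up to 5 genes called in input, and up to 4 members of each list with the smallest p against Sh 1 and 4, passing over predicted gene models. Other list members called in a comparison, and the genes called with Sh 1 and 4 summed, were named after their values were seen. Symbols were matched to RefSeq GRCm38.p6, the build of mm10 (22550 of 24062 by symbol, 1351 by synonym), for positions, spans and promoters. Alternatives were RLE and upper quartile scaling, DESeq2 1.42.0, no filter, each library left out, only the groups compared, separate Gh TRAP 2 and 3, replicate numbers as a block, and subsets of replicates. Summing Sh TRAP 1 and 4 and leaving out these 2 or Sh TRAP 2 and 3 were added after the data were seen. Scripts ran in Python 3.11.15 with scipy 1.17.1, pandas 2.3.3, numpy 2.4.6 and, for plots, matplotlib 3.10.9. Some items are not reported here.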

Additional observations from a re-analysis of the deposited data

Results flagged for a closer look

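Of 74 groups of 4 libraries tested for a single value far from the others by Dixon's criterion, 4 had one, where chance gives about 1 in 20. S100a10 stood at 64.85 CPM in Sh + Flx anxious TRAP 1 and at 72.4 to 73.7 CPM in the other anxious libraries. The other values were all in Sh TRAP 3: Efhd2 at 37.17 CPM against 65.7 to 71.4 CPM, Zwint at 77.11 CPM against 95.2 to 98.0 CPM, and Tnnt2 at 16.58 CPM against 7.98 to 9.40 CPM. Sh TRAP 3 was also the library with the most Malat1 and the least S100a10. Without it, all 24 of the higher and lower genes named first were still called against all Sh. These genes were chosen in part for a call in the comparison that leaves this library out. That they kept their call is therefore largely set by the choice and does not measure the influence of Sh TRAP 3.

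The change from Sh to Sh + Flx anxious differed between TRAP and input for 1243 genes by the interaction test of edgeR, among them 27 of 37 named genes. The TRAP change minus the input change on the log2 scale was above 0 for Cstb (1.82), Tnnt2 (1.26), Cycs (1.07), Efhd2 (0.64), Arl15 (0.58), Zwint (0.56), Hpcal4 (0.55) and Rgs13 (3.92, a fitted value that depends on the prior count because Sh TRAP held 2 counts in all). Among the named genes that fell in TRAP, it was -3.53 for Ryr1, -2.22 for Ttn, -2.05 for Thbs1, -2.05 for Tbrg3, -1.79 for Ftx, -1.73 for Meg3, -1.54 for Ptprz1, -1.18 for Mbp, -1.17 for Omd, -0.87 for Clmn and -0.75 for Unc13c. Malat1 was at -2.29. The genes that were high in Sh TRAP 2 and 3 alone gave -1.98 (D7Ertd715e), -1.79 (Celsr3), -1.38 (Csmd1), -1.09 (Cacna1b) and -0.99 (Tenm2). Mylk and Rimbp2, which rose in input, were at -0.97 and -1.34. These differences use all 4 Sh TRAP libraries, and without Sh TRAP 2 and 3 the number of genes called was 515.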

How the results depend on the processing

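The 24 genes named as higher or lower in both comparisons were chosen for these calls and for libraries without overlap. That they keep a call in fits on the same libraries is therefore largely set by the choice. The alternative without Sh TRAP 2 and 3 is itself the comparison against Sh 1 and 4 that chose them. The 24 kept their call against all Sh under every alternative but these: 21 were called with only the libraries of the 2 groups fitted, and 0 with the replicate numbers as a block. Of the 86 named genes called against all Sh, all were called with RLE or upper quartile scaling, DESeq2 or no filter. Without Sh TRAP 2 and 3, 58 of the 86 were called. Only 23 of the 86 were called with just the libraries of the 2 groups fitted, and 0 with the replicate numbers as a block. DESeq2 called 2787 genes against all Sh, 1484 against Sh 1 and 4 and 9 against Sh + Flx. With only the 2 groups fitted, 75 were called against all Sh. Leaving out 1 library gave 611 (anxious 2) to 2703 (Sh 4) calls against all Sh, beyond 1.5-fold of 1757 for each library, and 18 (Sh 1; 21 without Sh 4) to 665 against Sh 1 and 4. For TRAP against input the range was 235 (Sh 3) to 2211 (Sh 1), with 2172 without Sh 4, 251 without Sh 2, and 320 and 349 without anxious 2 and 3. Leaving out Sh TRAP 2 and 3 gave 770 calls in TRAP and 515 for TRAP against input, leaving out Sh TRAP 1 and 4 gave 6435, and summing Sh TRAP 1 and 4 gave 2675 against all Sh and 19 against Sh 1 and 4. Replicates 1 and 4 alone gave 2350 calls against Sh, 654 of them shared with the 1757 in the same direction, and 80 of the 1757 had the opposite sign there, whether called or not. Replicates 2 and 3 alone gave 4323 calls against Sh and 903 against Sh + Flx, and replicates 1 and 4 alone 14 against Sh + Flx; the causes were not tested. Depth limits genes with few counts, such as Rgs13.

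Some single genes changed sign. With replicates 1 and 4 alone, log2 fold changes were 0.13 for Celsr3, 0.0332 for D7Ertd715e, 0.0353 for Csmd1, 0.61 for Rimbp2, 1.31 for Arc, 1.03 for Dusp1, 0.33 for Gabbr1, 0.65 for Cacna1g, -0.41 for Rplp1, -0.31 for Rpl36a, -0.55 for Ctsl, -0.42 for Mt1 and -0.47 for Tsc22d3. With replicates 2 and 3 alone, Fos was at -2.26, and without Sh TRAP 1 and 4, Rps14 was at 1.25 and Ctss at 0.79. The cause was not tested.

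The replicate numbers did not pair the samples singly: deviations of same-numbered anxious and Sh TRAP libraries correlated at -0.12 to -0.10 across genes. The deviations still followed a split of 1 and 4 against 2 and 3. Anxious 1 and 4 correlated with Sh 2 and 3 at 0.05 to 0.13. Anxious 2 and 3 correlated with Sh 1 and 4 at 0.12 to 0.15. The other pairs were at -0.13 to -0.09. In each input group, 1 and 4, and 2 and 3, were the closest pairs. In Sh + Flx input their mean chi-square per gene was 5.29 and 5.44, against 13.5 to 16.1 for other pairs. The cause of this split was not tested, and the comparison against Sh 1 and 4 is not balanced for it. With the numbers as a replicate block, fitted on the 2 groups alone, 0 genes were called against all Sh (2695 at an unadjusted p under 0.05), 3986 against Sh 1 and 4, 10 against Sh + Flx, 653 in input and 0 for TRAP against input.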
